A study of Homo sapiens with 24 samples.

Results

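Cadherins and protocadherins are cell surface proteins that bind their own kind on a neighbouring cell in the presence of calcium. The genes described here were all probe sets that name 1 gene whose symbol begins with CDH and a digit, PCDH and a digit or the letters A, B or G, CELSR or DCHS, or is FAT1 to FAT4. The rule used names only, no measured value, and found 138 of the 41097 probe sets with 1 gene symbol, which stand for 78 of 19775 gene symbols. Of the 78 symbols, 36 belong to the clustered protocadherins (6 PCDHA, 17 PCDHB and 13 PCDHG), 17 to the classical cadherins, 11 to the non-clustered protocadherins, 6 to the FAT and Dachsous genes, 3 to the CELSR genes and 4 to other CDH genes. The last symbol, PCDH10-DT, is a non-coding transcript that the naming rule also took in. No gene on the Y chromosome was among them.

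Classical cadherins hold cells together through catenins, which tie them to the actin cytoskeleton. The clustered protocadherins lie in tandem on chromosome 5, each isoform is read from its own promoter, and single neurons express different combinations of them, which gives cells a surface identity in axon and dendrite patterning. CELSR proteins act in planar cell polarity and axon guidance, and FAT and Dachsous proteins bind each other across cells and orient growth and polarity.

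The arrays were of D425, an established human medulloblastoma cell line that expresses OTX2, a homeodomain transcription factor of the early brain and retina. Cells with a doxycycline-inducible short hairpin RNA against OTX2 (shOTX2) were followed in 3 independent time courses, with 1 array each at 0, 8, 16, 24, 48 and 96 h after doxycycline. Control cells were followed in 1 course at the same 6 times, so a control group is 1 array. Both arms share the cell line, the culture medium and the doxycycline. The labels used here do not say what the control cells carry, whether either line is a single clone, or how many hairpins were used. A second shOTX2 line was not analysed here, so an effect of OTX2 loss and one of this hairpin or line cannot be told apart.

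The 24 Affymetrix U133 Plus 2.0 arrays carried MAS5 signals scaled to a common trimmed mean of about 100.01, with array medians from 16.3 to 20.6. A probe set was kept if its signal exceeded the array median on at least 3 arrays, and the kept probe set with the highest mean stood for its gene, which left 13903 genes for the tests. The targeted gene checked the labels only weakly. On the probe set with the higher mean of its 2, OTX2 was lower than at 0 h of the same course on 15 of 15 induced arrays, from 4659 ± 217 (SD, n = 3) at 0 h to 4188 ± 302 at 96 h (log2 change -0.15, limma adjusted p = 0.172). On its other probe set 9 of 15 induced arrays were lower, but the mean was higher at 96 h (3295 ± 275) than at 0 h (3027 ± 155). The difference between the arms over late against early times was -0.07 on the first probe set. The control course read 4902 to 5357 on the first probe set. Of 5 markers listed for this cell line, OTX2, MYC and the retinal gene IMPG2 stood at 1207 or more on every array, while the photoreceptor regulators CRX and NRL went down to 119 and 42.1. The 5 summed to 11788 to 13153 in the shOTX2 arrays of 0 h and to 9227 to 9724 in those of 96 h. The mean of MYC was 5022 at 0 h and 3064 at 96 h and that of IMPG2 2476 and 1394, whereas CRX read 143 and 356 and NRL 272 and 472. The part of these shifts in the cadherin changes was not tested. EPCAM (epithelium), PTPRC (leukocytes) and VWF (endothelium) did not exceed 20, 16.7 and 15.4. Other markers of the same lists reached more: KRT18 347 and KRT8 69.9 (epithelium), CD3E 32.5 (leukocytes) and PECAM1 34.6 (endothelium). In shOTX2 cells the mean of KRT18 was 61.5 at 0 h and 130 at 96 h, and that of KRT8 25.3 and 52.4. The ratio of 3′ to 5′ actin signal, a measure of RNA integrity, was 1.31 to 1.51 in shOTX2 course 1, 1.30 to 1.55 in the control course, and 1.82 to 2.36 and 1.87 to 2.02 in courses 2 and 3.

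At 96 h most of the cadherin and protocadherin genes that could be tested had risen from 0 h. Of 78 genes 49 passed the signal filter, and of these 30 rose and 1, PCDHAC2, fell. Changes are given as differences of log2(signal + 16), which understates the change of dim genes, and a gene is called where limma's Benjamini-Hochberg adjusted p over the 13903 genes is under 0.05. In the same comparison 21.1% of all genes tested rose and 22.5% fell, against 61.2% and 2.04% of the members tested. The median change of the 49 members was 1.11, and that of all genes tested was -8.83e-05. With no filter, when all 78 members entered the fit, 32 rose and 1 fell, where 14.8% and 15.1% of all genes did.

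The filter needs care in reading these counts. A gene that is dim at the start can pass it only through the arrays where it is high. When the 6 shOTX2 arrays of 48 and 96 h were left aside, 16 of the 49 members did not pass. These were CDH6, CDH7, FAT3, FAT4, PCDHB3, PCDHB4, PCDHB6, PCDHB7, PCDHB9, PCDHB11, PCDHB12, PCDHB14, PCDHB16, PCDHGA8, PCDHGA10 and PCDHGB7. Of the other 33 members, 16 rose at 96 h (48.5%) and 1 fell (3.03%), with a median change of 0.55. Of the 13407 genes that passed in the same way, 20.2% rose and 23.3% fell, with a median of -0.02. Most of these genes started near background: 26 of the 49 had a mean signal below 16 at 0 h, 3 had 100 or more at 0 h, and 15 had 100 or more at 96 h. All 31 called genes moved in the same direction in each of the 3 courses.

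**Figure D1:**
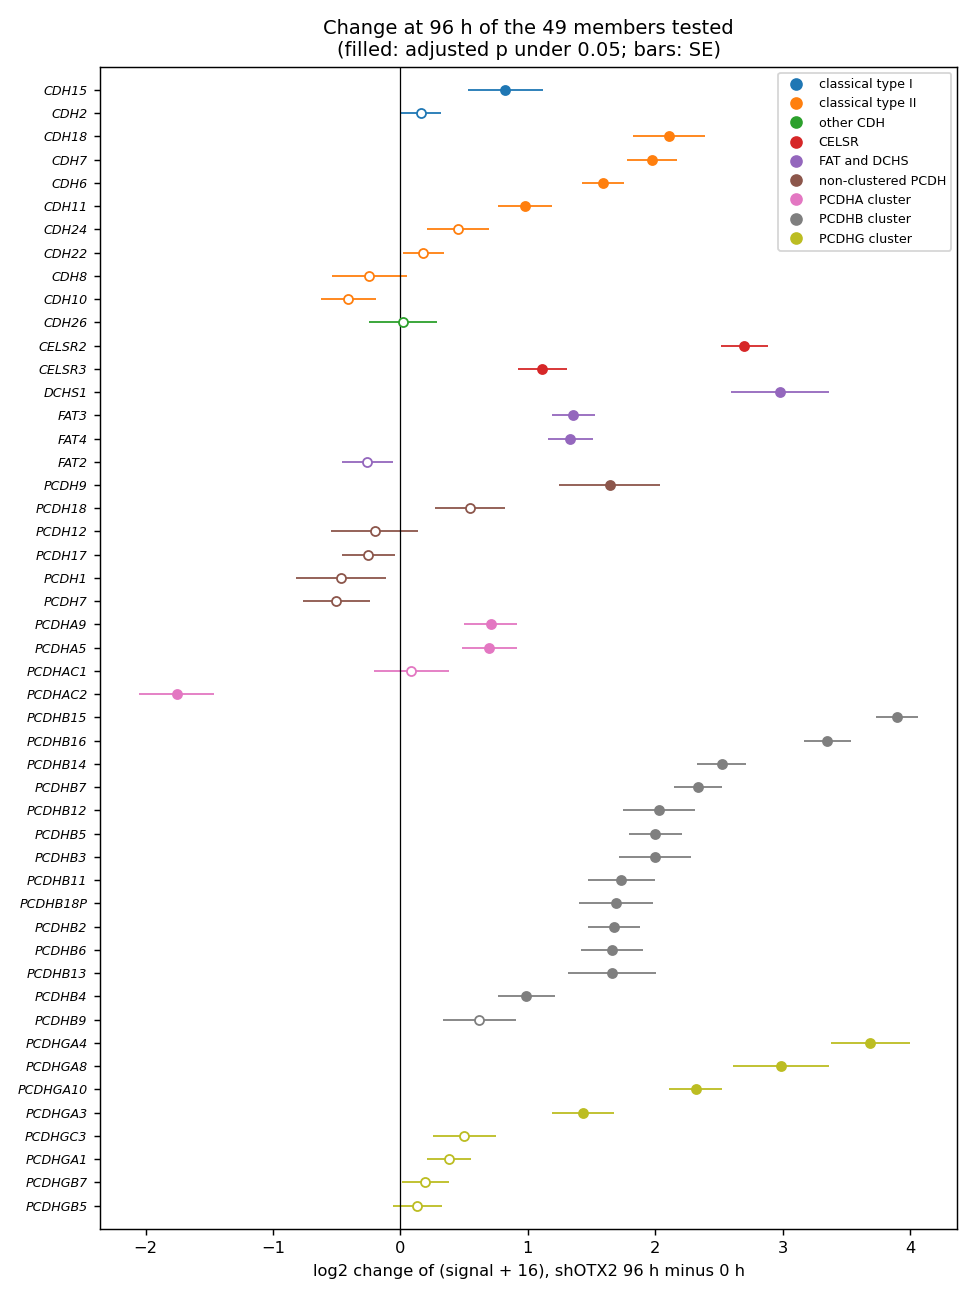
Change of the 49 tested members between 0 and 96 h in shOTX2 cells, as the difference of log2(signal + 16) with its standard error (n = 3 arrays at each time), grouped by gene family and coloured by it. Filled points passed an adjusted p of 0.05. The PCDHB genes lie between 0.62 and 3.90, and PCDHAC2, at -1.76, is the only filled point below 0.

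The change came late. No member was called at 8 h, where 0% of all genes were called, or at 16 h, where 1.02% were. Unadjusted limma p-values under 0.05 numbered 2 and 4 of the 49 members, and 462 and 1555 of the 13903 genes. At 24 h CDH11 and PCDHB15 rose and CDH2 fell, where 3.45% of all genes rose and 2.7% fell. None of these 3 calls was kept without shOTX2 course 1 or without course 2, and only that of CDH11 was kept without course 3. With the time course as a replicate block, CDH2 (adjusted p = 0.0148) was called at 16 h, and CELSR2 (0.00977) and PCDHAC2 (0.0167) were called at 24 h as well, where 5.7% and 15.3% of all genes were called. At 48 h 27 members rose and 2 fell, PCDHAC2 and CDH2, where 16.3% of all genes rose and 17% fell. Without course 2 the 48 h count was 19. The median change of the members was 0.76 at 48 h, and 27 of the 30 genes that had risen at 96 h had a higher mean at 96 h than at 48 h. The 96 h and 0 h arrays did not overlap in 32 members with the higher signal at 96 h and in 3 with the lower one, where 24.9% and 25.4% of all genes tested were so separated. In 17 members each of the 6 late shOTX2 arrays exceeded all 18 other arrays of the study, which 7.18% of all genes tested did. Of the 17, PCDHB4, PCDHB7, PCDHB11, PCDHB14, PCDHB16, PCDHGA8, PCDHGA10, CDH6 and CDH7 passed the filter only through those late arrays. The filter thus favoured this pattern in them, and the other counts of late rises include such members too.

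In the PCDHB cluster nearly every gene tested rose. It holds single-exon genes for protocadherin beta isoforms, which take part in the surface code of neurons. Of its 17 named members 14 passed the filter, and 13 of these rose at 96 h, where 21.1% of all genes tested rose. The median change over the 14 was 1.87. PCDHB3, PCDHB4, PCDHB6, PCDHB7, PCDHB9, PCDHB11, PCDHB12, PCDHB14 and PCDHB16 passed the filter only through the shOTX2 arrays of 48 and 96 h. The filter thus favoured a rise in these genes. PCDHB2, PCDHB5, PCDHB13, PCDHB15 and PCDHB18P passed without those arrays and rose. The 60 bases around a short run of letters that the beta promoters share are shown for the 4 beta genes with the largest rises. They are shown as well for PCDHB9, whose own probe set was not called, and for PCDHGA4, the gamma gene with the largest rise. They come from RefSeq, build GRCh38.p14, chromosome 5, + strand, 5′ to 3′, and the capitals mark the 9 bases. In PCDHGA4 the marked bases differ from the shared run by 1. The windows are chr5:141245299-141245358, chr5:141182295-141182354, chr5:141223248-141223307, chr5:141172551-141172610, chr5:141187059-141187118 and chr5:141354945-141355004 in the order of the lines.
PCDHB15: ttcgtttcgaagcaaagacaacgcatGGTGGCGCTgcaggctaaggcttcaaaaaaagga
PCDHB16: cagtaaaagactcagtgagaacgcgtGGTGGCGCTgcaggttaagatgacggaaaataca
PCDHB14: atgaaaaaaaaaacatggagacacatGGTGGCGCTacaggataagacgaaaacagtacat
PCDHB7: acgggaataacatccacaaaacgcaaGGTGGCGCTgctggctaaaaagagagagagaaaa
PCDHB9: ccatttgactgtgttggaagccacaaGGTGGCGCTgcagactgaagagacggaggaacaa
PCDHGA4: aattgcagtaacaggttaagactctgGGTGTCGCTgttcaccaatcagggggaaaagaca

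Promoter sequences, from 250 bases before to 50 after the gene start, were matched for 57 of the 78 members. The run GGTGGCGCT was the 9-base run carried by most beta promoters, and it was picked after their sequences had been seen. On either strand it stood in 12 of the 13 beta promoters matched, in 12 of the 30 clustered protocadherin promoters and in 0.501% of all 35116 promoters of the table. In the beta genes shown its first base lay at -76 to -66 from the gene start. The stretch marked in PCDHGA4 began at -50 and differs from the run by 1 base. With 1 mismatch allowed GGTGGCGCT was found in 17 of the 57 member promoters and in 12.2% of all promoters. The 17 were all 13 beta promoters, PCDHGA4, and FAT1, CDH9 and PCDH10-DT, which lie outside the clusters and stayed below the signal filter. PCDHB9, which was not called, carries it exactly, as does PCDHB8, which stayed below the signal filter. TAATCC, the core bound by OTX2 and related homeodomain proteins, was in 2 of the 57 member promoters and 6.36% of all promoters. CACCTG, an E-box bound by SNAI and ZEB repressors, was in 4 of the 57 and 20.6% of all. A match describes these letters only and shows no binding.

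PCDHB15 had the largest change of the 49 tested members. Over the 12 shOTX2 arrays of 0 to 24 h its signal was 10.8 at the lowest, 19.9 at the median and 32.9 at the highest. At 48 h it was 214, 187 and 229 in courses 1, 2 and 3, and at 96 h 442, 455 and 387. All 6 late arrays lay above the control course, whose lowest, median and highest signals were 18.5, 23.1 and 40.2. The change at 96 h was 3.90 (SE 0.17, adjusted p = 1.77e-11).

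PCDHB16 followed the same course. Its 12 arrays of 0 to 24 h ran from 5.6 to 14.5 with a median of 10.7, and the 3 courses read 66.5, 73.9 and 105 at 48 h and 198, 276 and 248 at 96 h. The control course held 7.6 to 25.5 with a median of 12.2, so the groups did not overlap, and the change was 3.35 (SE 0.18, adjusted p = 3.19e-10). PCDHB14 ran from 4.1 to 21.4 (median 13.1) up to 24 h, then 68, 49.9 and 72.3 at 48 h and 185, 140 and 132 at 96 h. Its control arrays stayed between 4.9 and 16 (median 10.3), below every late array, and its change was 2.52 (SE 0.19, adjusted p = 1.15e-08). PCDHB7 was close to even over the courses, with 128, 133.4 and 142 at 96 h after 48.3, 63.4 and 83.1 at 48 h. Up to 24 h it had read 6.3 to 17 (median 10.9), with 3.8 to 17.1 in the control course (median 10.8), and it changed by 2.34 (SE 0.19, adjusted p = 1.92e-08).

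PCDHB5 read above the array medians before induction. Its early shOTX2 arrays read 36.1 to 71 (median 53.6), and the 3 courses read 229, 150 and 181 at 48 h and 337, 218 and 242 at 96 h. The control course was lower throughout, at 13 to 28.7 (median 21.2), including before induction. The change at 96 h was 2.00 (SE 0.21, adjusted p = 3.57e-07). PCDHB12 read 2.2 to 17.6 (median 6.25) up to 24 h and 1.9 to 9.5 in the control course (median 4.5). Course 2 was the late one for this gene: the courses read 37.6, 7.6 and 27.9 at 48 h and 93.2, 78.1 and 51.1 at 96 h. Its change was 2.03 (SE 0.28, adjusted p = 1.17e-05).

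The other beta genes that rose at 96 h were PCDHB3 (2.00), PCDHB11 (1.73), the pseudogene PCDHB18P (1.69), PCDHB2 (1.68), PCDHB6 (1.66), PCDHB13 (1.66) and PCDHB4 (0.99). PCDHB9 was the tested beta gene not called, at 0.62 (SE 0.29, adjusted p = 0.0916), with 20.6, 17.9 and 13.1 at 96 h. A separate probe set that names both PCDHB9 and PCDHB10, and so lies outside the naming rule, read 512, 462 and 399 at 96 h against 20.1, 15.7 and 22.4 at 0 h. PCDHB1, PCDHB8 and the pseudogene PCDHB17P did not pass the filter, with highest signals of 22.7, 25 and 17.1. Beta genes are alike in sequence, and the probe sets of PCDHB3, PCDHB6, PCDHB11, PCDHB12, PCDHB13 and PCDHB18P carry the maker's mark for probes shared with other sequences, so reads of one gene may hold signal of another. PCDHB15, PCDHB16, PCDHB14, PCDHB7, PCDHB5, PCDHB2 and PCDHB4 were read by probe sets without that mark.

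**Figure D2:**
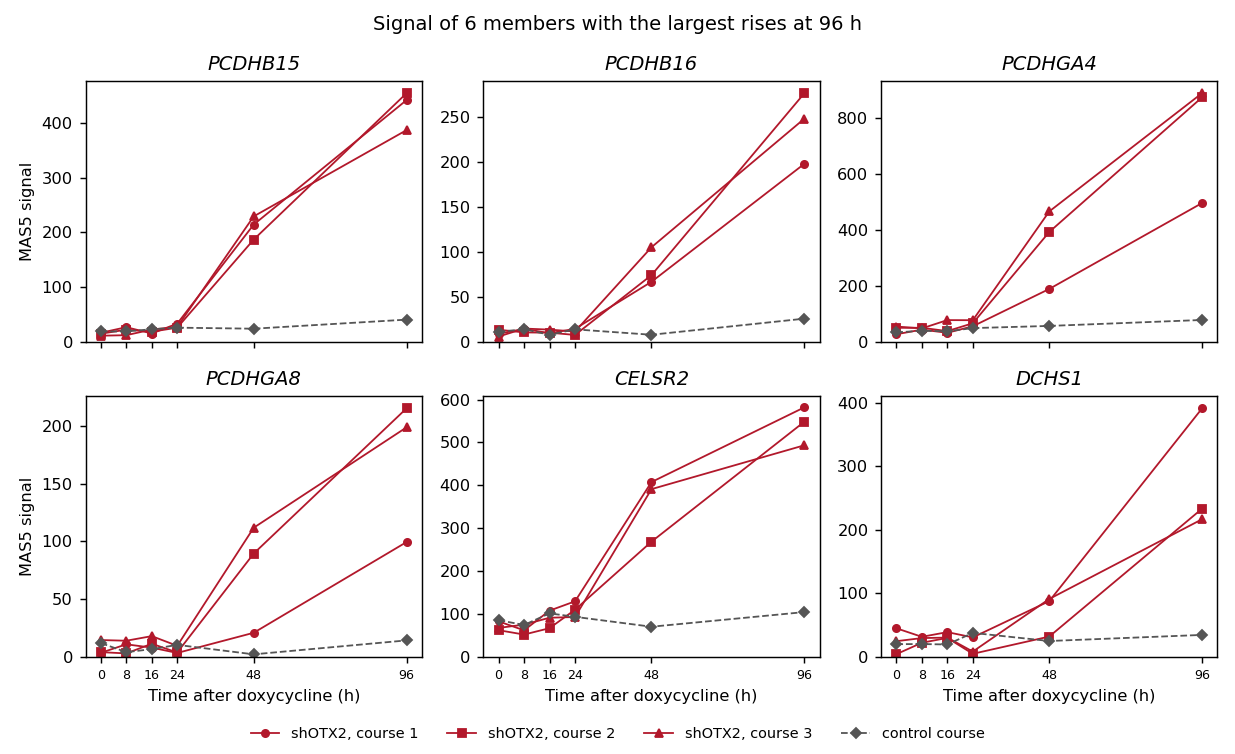
MAS5 signal against time after doxycycline for the 6 members with the largest changes at 96 h, 1 line for each shOTX2 course and a dashed line for the control course, on a separate linear axis for each gene. The shOTX2 lines stay near the control line up to 24 h and stand above it at 96 h, where PCDHB15 reads 387 to 455 and its control array 40.2.

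In the PCDHG cluster 4 of the 8 genes tested rose. These genes join a variable exon to constant exons that all gamma isoforms share, and gamma protocadherins are known for neuron survival and dendrite self-avoidance. The cluster has 13 named members, and the 4 that rose at 96 h are all of the A group. In the same comparison 21.1% of all genes tested rose. Of the 4, PCDHGA8 and PCDHGA10 passed the filter only through the shOTX2 arrays of 48 and 96 h, which favoured a rise. PCDHGA4 had the largest change of the gamma genes tested. It read 26.2 to 76.8 (median 49.3) in shOTX2 arrays up to 24 h, 188, 392 and 465 at 48 h and 495, 873 and 888 at 96 h, and the control course read 32.8 to 77.3 (median 43.5). Course 1 stayed below courses 2 and 3 at both late times but above every control array. The change was 3.69 (SE 0.31, adjusted p = 3.06e-08).

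PCDHGA8 showed the same lag of course 1. Its signals at 48 h were 20.6, 89.3 and 112 and at 96 h 99.3, 215 and 199, after 2.7 to 17.7 (median 8.5) up to 24 h. The control course read 1.9 to 14 (median 8.25), and the change was 2.99 (SE 0.37, adjusted p = 3.70e-06). PCDHGA10 was close to the lowest signals of the array before induction, from 1.2 to 13.5 (median 2.75) up to 24 h. At 48 h it read 60.9, 55 and 71.9 and at 96 h 52.7, 79.2 and 89.3, with 1.2 to 14.9 (median 2.9) in the control course. Its change was 2.32 (SE 0.21, adjusted p = 6.03e-08), and unlike PCDHGA4 it had nearly its 96 h level at 48 h. PCDHGA3 rose by 1.43. The probe sets of PCDHGA10 and PCDHGA3 carry the shared-probe mark, as do those of PCDHGA1, PCDHGB5, PCDHGB7 and PCDHGC3, so they too may hold signal of other isoforms. PCDHGA4 and PCDHGA8 were read without it. PCDHGC3 (0.50), PCDHGA1 (0.38), PCDHGB7 (0.20) and PCDHGB5 (0.13) were not called at 96 h. PCDHGC3 was called at 48 h with the replicate block (adjusted p = 0.0338), where 44.6% of all genes were called, and not without it (0.0902). PCDHGA9, PCDHGB6, PCDHGC4, PCDHGC5 and the pseudogene PCDHGB8P stayed below the filter.

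The PCDHA cluster held the member that fell. PCDHAC2 encodes a C-type alpha isoform, read from the last variable exon before the alpha constant exons. In courses 1, 2 and 3 it read 78.8, 61.2 and 43.8 before induction and 23.2, 19.7 and 24.1 at 24 h. The late arrays read 5.8, 25.5 and 24.4 at 48 h, then 1.4, 1.7 and 20.9 at 96 h. Course 3 thus kept a signal at 96 h that courses 1 and 2 lost. The control course read 23.8 to 53.7 (median 42.9) with no array as low as those 2. The gene fell by 1.76 at 96 h (SE 0.30, adjusted p = 8.99e-05). It was read by a single kept probe set, whose name carries the shared-probe mark. The 250 bases before its start (GRCh38.p14, chr5:140966226-140966475, + strand, from RefSeq) are shown for comparison with the beta promoters, and they hold no match to GGTGGCGCT on either strand, also with 1 mismatch.
PCDHAC2: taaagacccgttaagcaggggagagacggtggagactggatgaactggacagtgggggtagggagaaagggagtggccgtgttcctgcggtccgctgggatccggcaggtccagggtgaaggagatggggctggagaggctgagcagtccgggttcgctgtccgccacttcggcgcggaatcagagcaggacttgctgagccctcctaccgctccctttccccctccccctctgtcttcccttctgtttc

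Among the other alpha genes with a probe set of their own, PCDHA9 rose by 0.71 and PCDHA5 by 0.70 at 96 h. PCDHA9 was not called without course 2 (adjusted p = 0.0811) or course 3 (0.0741), nor PCDHA5 without course 1 (0.0512) or course 2 (0.146). PCDHAC1 was not called (0.09). PCDHA2 and PCDHA10 were below the filter.

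Signal pooled over the alpha isoforms went down and came back. On this array 3 probe sets name all 15 alpha genes, which places them outside the naming rule, and none of the 3 can say which isoform it read. The probe set of these with the highest mean read 457, 309 and 252 at 0 h in courses 1, 2 and 3, then 119, 106.5 and 136 at 24 h, 169.5, 109 and 187 at 48 h, and 375, 319 and 307 at 96 h. All 6 arrays of 24 and 48 h lay below the control course, which held 248 to 278, and the arrays of 96 h lay above it. The 3 probe sets fell at 24 h by 1.35, 1.27 and 0.93 (adjusted p = 0.000978, 0.00191 and 0.0176 by limma over 33803 probe sets), where 1.48% of all probe sets fell. At 48 h they fell by 1.04, 0.92 and 0.73 (adjusted p = 0.00093, 0.00327 and 0.0141), where 12.3% fell. At 96 h their changes were 0.01, 0.41 and 0.31, and none was called. Without course 2 none was called at 24 h (adjusted p from 0.103 to 0.461) or at 48 h (0.0619 to 0.295), and without course 1 the third was not called at either time (0.0634 and 0.066). With the replicate block all 3 were also lower at 16 h (adjusted p = 0.00476, 0.0112 and 0.0368). The difference between the arms over late against early times was not called for any of them, in a comparison that averages 48 and 96 h.

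**Figure D3:**
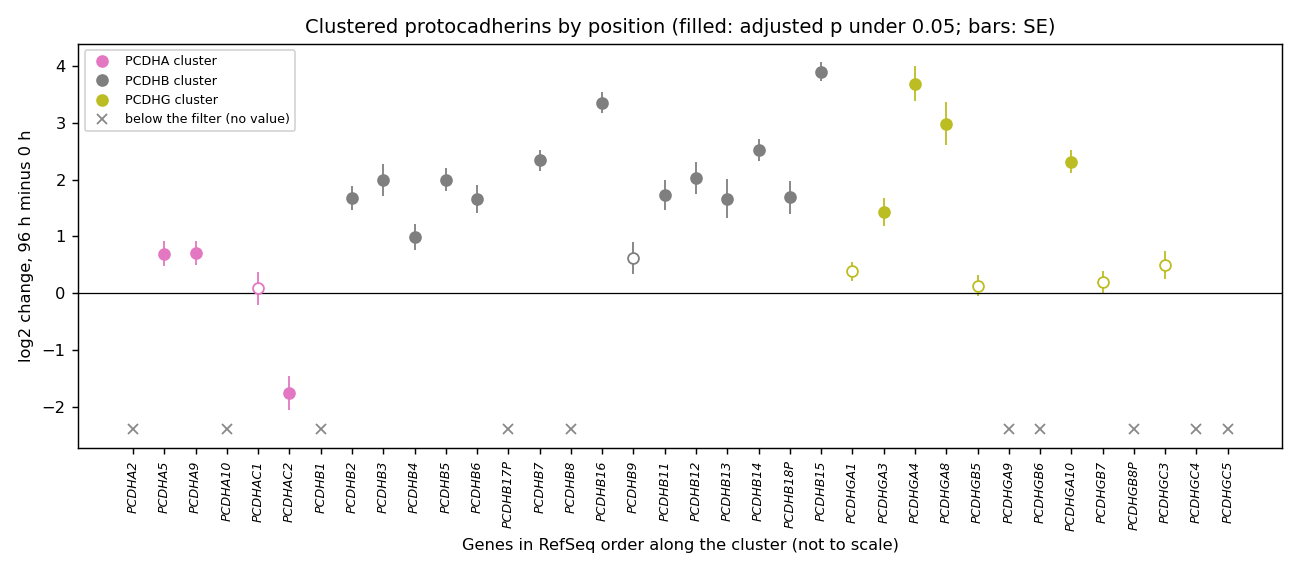
Change at 96 h of the clustered protocadherins (difference of log2(signal + 16), with standard error, n = 3 arrays at each time) in their order along chromosome 5, with crosses for genes below the signal filter. Filled points passed an adjusted p of 0.05. The run of filled points from PCDHB2 to PCDHGA10 is broken by PCDHB9, PCDHGA1 and PCDHGB5, and PCDHAC2 lies below 0.

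Both CELSR genes tested rose at 96 h, where 21.1% of all genes tested rose. CELSR2 (chromosome 1), a seven-pass cadherin of planar polarity and neurite growth, read 51.3 to 129 (median 78.3) in shOTX2 arrays up to 24 h, 407, 268 and 391 at 48 h and 582, 548 and 493 at 96 h. The control course stayed between 69.6 and 104 (median 88.8), and each late shOTX2 array exceeded it. The change was 2.70 (SE 0.18, adjusted p = 2.88e-09), and a second probe set gave 2.80. CELSR3, a receptor of axon tract formation, rose by 1.11, with 157, 142 and 121 at 0 h and 453, 299 and 241 at 96 h. Its control arrays reached 289, so the arms overlapped. CELSR1 was below the filter, at no more than 18.3.

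Among the FAT and Dachsous genes, DCHS1 (chromosome 11), a Dachsous cadherin that binds FAT4, changed most. It read 3.7 to 44.6 (median 29.2) up to 24 h, 87.4, 31.5 and 90.8 at 48 h and 392, 233 and 217 at 96 h. The control course read 19 to 37.3 (median 22.1). At 48 h course 2 still lay within the early range, and at 96 h all 3 courses lay above every other array. The change at 96 h was 2.98 (SE 0.38, adjusted p = 5.03e-06), and a second probe set gave 1.62. FAT3 rose by 1.36 and FAT4, the partner of DCHS1, by 1.33. Both passed the filter only through the shOTX2 arrays of 48 and 96 h, which favoured a rise. FAT2 was not called (-0.26). FAT1 and DCHS2 were below the filter, at no more than 15.4 and 17.7.

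The classical cadherins were mixed. N-cadherin, CDH2, the main classical cadherin of neural cells, was lower at 24 and 48 h than at 0 h. It read 121, 129 and 132 before induction and 64.3, 94.1 and 82.8 at 24 h. It then read 68.9, 76.2 and 93.5 at 48 h, and 117, 142 and 178 by 96 h. It thus fell by 0.58 at 24 h (SE 0.16, adjusted p = 0.0393) and by 0.59 at 48 h (adjusted p = 0.00831), and its 96 h arrays overlapped those of 0 h (change 0.16, adjusted p = 0.465). The control course read 57.3, 77.5, 41.5, 34.5, 56.8 and 39.7 from 0 to 96 h, below the shOTX2 arrays at 0 h. A second kept probe set of CDH2 was dimmer, at 25.5, 26.2 and 33.1 at 0 h in courses 1, 2 and 3. It read 27.4, 12.5 and 22.8 at 24 h, where course 1 did not fall, and 23.9, 12.6 and 30.7 at 48 h. With the mean of its kept probe sets CDH2 was not called at 24 h. CDH15, M-cadherin, rose by 0.82 at 96 h, a call lost without course 1 (adjusted p = 0.116) or course 2 (0.136). E-cadherin CDH1 and P-cadherin CDH3 were below the filter, with highest signals of 8.9 and 5.5.

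Of the 13 type II cadherins 8 were tested and 4 rose at 96 h, where 21.1% of all genes tested rose. CDH18 (chromosome 5), a type II cadherin of the nervous system, was called at 96 h and not at 48 h. It read 11.4 to 45.7 (median 24.6) up to 24 h, 21.7, 35.1 and 68 at 48 h and 149, 220 and 207 at 96 h, against 38.2 to 74.1 (median 49.5) in the control course. The arms did not overlap at 96 h, and the change was 2.11 (SE 0.28, adjusted p = 8.42e-06). CDH7 rose by 1.97 and CDH6 by 1.59. Both passed the filter only through the shOTX2 arrays of 48 and 96 h, which favoured a rise. For CDH6 the 5 kept probe sets ranged from -0.10 to 2.40, and 4 of them were called. The probe sets of CDH6, CDH7 and CDH11 carry the shared-probe mark, as do those of CDH15, DCHS1 and PCDH9. CDH11, osteoblast cadherin, rose early, by 1.10 at 24 h (SE 0.21, adjusted p = 0.00395), 1.53 at 48 h and 0.98 at 96 h. Its control course spanned 22 to 54.2, which held the 3 signals of 96 h (44, 33.5 and 44). The other 2 kept probe sets of CDH11 changed by -0.49 and 0.30 and were not called.

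CDH8, a type II cadherin of neural circuits, was not called at 96 h. It read 81.5, 94.7 and 124 at 0 h and 55, 84.2 and 112 at 96 h (change -0.24), and 22.9 to 59.1 in the control course. With the replicate block it was called at 48 h (adjusted p = 0.0394; 0.387 without it). CDH24 (0.45), CDH22 (0.18) and CDH10 (-0.41) were not called, although a second probe set of CDH24 was (0.83). CDH5, of endothelium, was at no more than 15.2, and CDH9, CDH12, CDH19 and CDH20 were at no more than 17.4. Of the other CDH genes CDH26 was tested and not called (0.02). CDH16, CDH17 and CDH23 were below the filter, at no more than 26.6.

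Of the 11 non-clustered protocadherins 6 were tested and 1 rose at 96 h, where 21.1% of all genes tested rose. PCDH9 (chromosome 13), a delta protocadherin of developing brain, read 34.7, 71.9 and 54.4 at 0 h, 134, 96.2 and 227 at 48 h and 83.2, 310 and 279 at 96 h. Course 1 was lower at 96 h than at 48 h, and courses 2 and 3 were higher. The control course read 3.2 to 19.6. The change was 1.64 (SE 0.39, adjusted p = 0.0023), which was not called without course 3 (0.0665). PCDH18 (0.55), PCDH12 (-0.20), PCDH17 (-0.25), PCDH1 (-0.47) and PCDH7 (-0.50) were not called. PCDH8, PCDH10, PCDH11X, PCDH15, PCDH19 and PCDH10-DT were below the filter, at no more than 21.8.

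**Figure D4:**
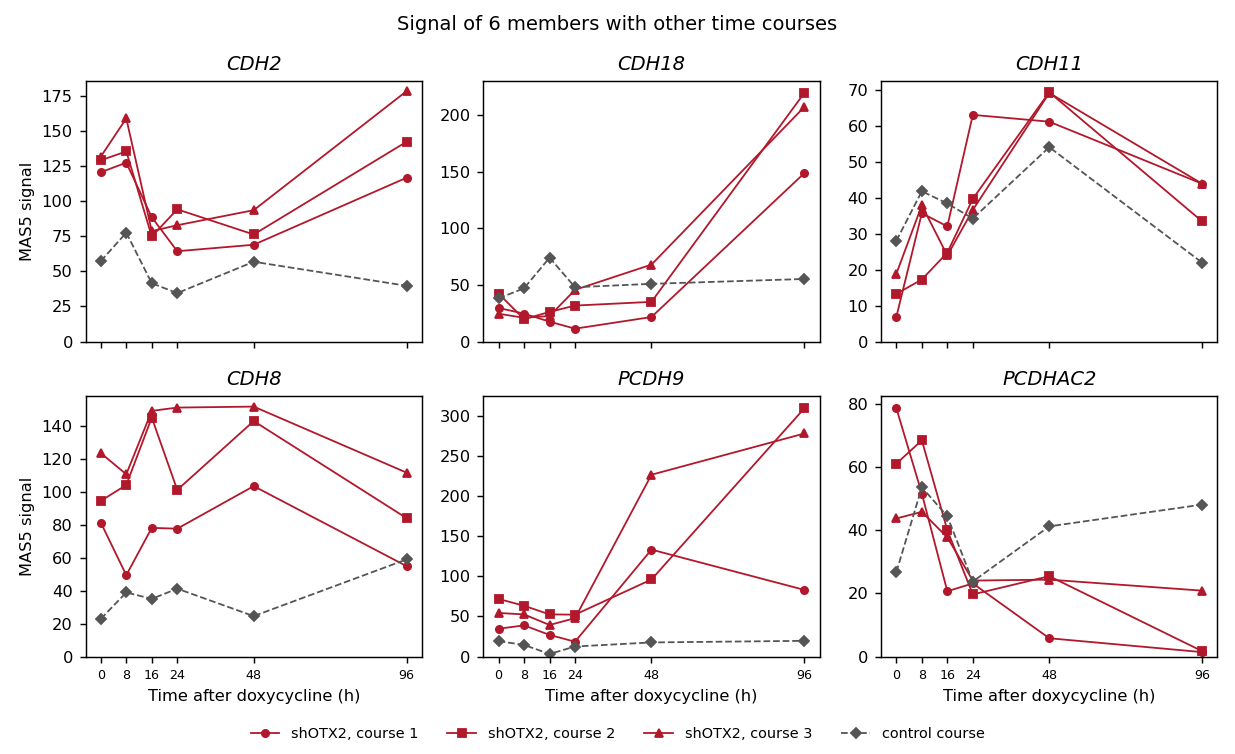
MAS5 signal against time after doxycycline for 6 other members, 1 line for each shOTX2 course and a dashed line for the control course, on a separate linear axis for each gene. PCDH9 is among the members that rise late. CDH2 dips from 16 to 48 h, CDH18 rises between 48 and 96 h, CDH11 is highest at 48 h in courses 2 and 3, and PCDHAC2 falls.

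The control course showed no called change of its own. Its arrays of 48 and 96 h against those of 0 and 8 h gave no called member and 0% of all genes. Unadjusted limma p-values were under 0.05 for 6 of the 49 members and for 1103 of the 13903 genes. The shOTX2 change over the same times, less the control change, was higher in 19 members and lower in 1, PCDHAC2, where 10.5% of all genes were higher and 12% lower. This difference was 2.84 for PCDHB15, 2.41 for PCDHGA4, 2.40 for PCDHB16, 2.38 for CELSR2 and -1.58 for PCDHAC2. By family it was called in 9 of 14 beta, 4 of 8 gamma, 1 of 4 alpha, 1 of 2 CELSR, 2 of 4 FAT and Dachsous, 3 of 8 type II and 0 of 2 type I genes, and in 0 of 6 non-clustered protocadherins. Of the 19 higher members, CDH6, CDH7, FAT3, PCDHB3, PCDHB7, PCDHB11, PCDHB12, PCDHB14, PCDHB16, PCDHGA8 and PCDHGA10 passed the filter only through the late shOTX2 arrays. The filter thus favoured a call in these genes, which limits a comparison with the share of all genes. Some other kept probe sets of CDH6, and those of DCHS1, CDH11 and PCDHGA3, were not called in this test. Of the 20 calls 12 were kept without any 1 course. FAT3 and PCDHB11 were lost without each course (adjusted p from 0.0518 to 0.163), CDH11 without course 2 or 3 (0.124 and 0.0744), PCDHB3 and PCDHB12 without course 1 or 3 (0.053 to 0.132), PCDHAC2 and PCDHGA8 without course 2 (0.0699 and 0.0611) and DCHS1 without course 3 (0.145). The test assumes that control arrays vary as the shOTX2 arrays do, since each control time is 1 array. With the replicate block 25 members were called, where the share of all genes called went from 22.5% without it to 35% with it: CDH18 (adjusted p = 0.0133), CELSR3 (0.00297), PCDH9 (0.00732), PCDHAC1 (0.0361), PCDHB13 (0.0409) and PCDHGC3 (0.0152) were gained, and FAT3 (0.0542) was lost. In the control course PCDHA5 changed by 0.87 and PCDHB18P by 0.85, neither of them called, against 0.76 and 1.55 in shOTX2 cells.

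**Figure D5:**
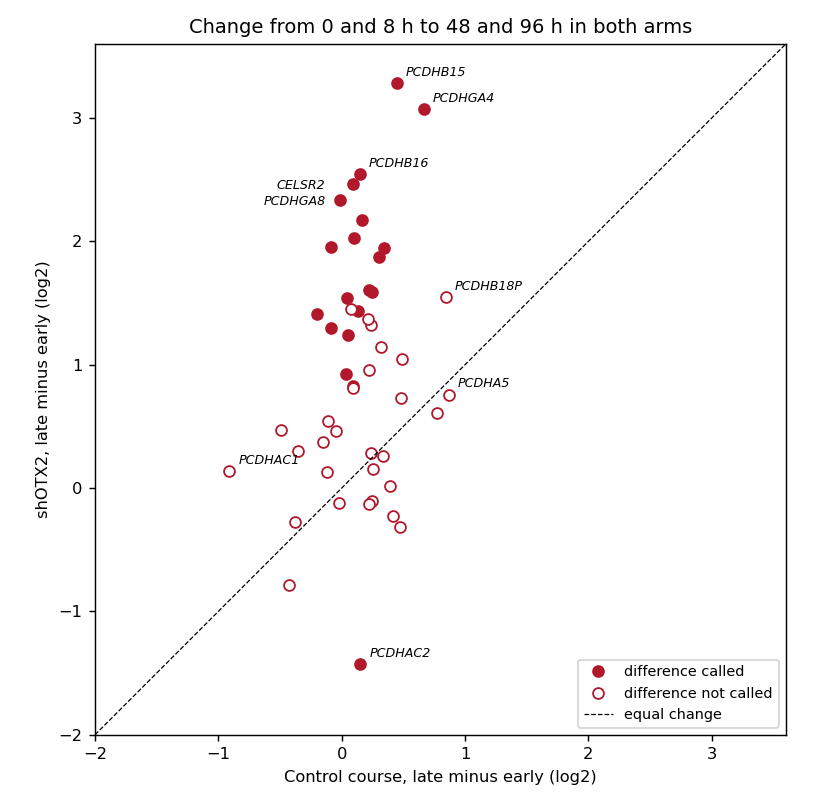
Change from 0 and 8 h to 48 and 96 h (difference of mean log2(signal + 16)) of the 49 tested members in the control course (x axis) and in shOTX2 cells (y axis), with the dashed line for equal change. Filled points passed the test of the difference between the arms. PCDHB15 lies at 0.45 and 3.28, and PCDHAC2 at 0.15 and -1.42.

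Before induction the arms were compared at 0 h, where no member and 0.453% of all genes were called between 3 shOTX2 arrays and 1 control array. Unadjusted limma p-values were under 0.05 for 6 of the 49 members, where 1291 of the 13903 genes had such values. Without shOTX2 course 1, CDH8 (1.68, adjusted p = 0.00208) and CDH2 (1.00, adjusted p = 0.0141) were higher in shOTX2 cells, in a comparison of 2 arrays with 1 where 4.61% of all genes were called.

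Other genes of cadherin adhesion were taken from a list of 61 catenins, junction linkers, repressors, proteases, polarity genes and partners, of which 43 were tested. At 96 h 12 rose (27.9%) and 8 fell (18.6%), with a median change of 0.14, close to the 21.1% and 22.5% of all genes tested. The largest rises were in ZEB2 (4.10), a repressor of E-cadherin, FYN (2.75), a kinase bound by protocadherin tails, and SNAI2 (2.24), a second E-cadherin repressor. The largest falls were in CTNNAL1 (-1.91), an alpha-catenin-like protein, FZD6 (-0.77), a polarity receptor, and VCL (-0.70), the junction linker vinculin. Of the catenins, JUP, the gamma-catenin plakoglobin, rose by 1.39 (SE 0.26, adjusted p = 0.000302), from 26.2 ± 9.41 (SD, n = 3) at 0 h to 98.2 ± 43.9 at 96 h, with 17.7 and 18.2 in the control course. Its difference between the arms was 1.31 (adjusted p = 0.0169). CTNNA1 rose by 0.40, CTNNB1 was not called (0.09, adjusted p = 0.523), CTNNA2 was below the filter and CTNND1 was not analysed here.

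Markers of other cell types moved in the same arrays. The summed signal of 6 mesenchymal markers was 72 to 103 in the 0 h arrays and 560 to 1127 in the 96 h arrays, with COL1A1 at a mean of 39.1 and 542 and PDGFRB at 23 and 96.6, while DCN and LUM stayed at or below 30.5 and 16.9 on every array. The 6 epithelial markers summed to 78.4 to 135 and 155 to 270, most of it KRT18, and the 5 endothelial markers to 39.5 to 51.6 and 44.3 to 56.6. The 3 immune markers measured summed to 11.2 to 55.6 and 23.8 to 27. The part of these in the cadherin changes was not tested. In these bulk samples, more cells that express a gene and more RNA of it per cell cannot be told apart.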

How the data were processed

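Total RNA of 24 D425 samples was hybridised to Affymetrix U133 Plus 2.0 arrays. The values deposited are linear MAS5 signals (intensity), which GCOS gave per the submitters' processing notes (versions and genome build are not given in the sources used here), and their trimmed means (2% off each end) show that each array was scaled as a whole. A microarray gives no read depth, so the number of arrays limits precision. Gene names came from the platform annotation, with symbols updated through Entrez IDs for 41043 of 41097 probe sets. The 1801 probe sets with several symbols and 11777 with none listed were left out of gene tests.

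log2(signal + 16) was fitted with limma 3.58.1 in R 4.3.3 (12 group means, moderated variance with a trend, all 24 arrays), and p-values were adjusted over all genes. On simulated data for the 96 h comparison with 13903 genes, 72% of changes of 1 and 99% of changes of 2 on the log2 scale were recovered, and 3.39% of calls were false. The simulation changed 100 genes of each size and drew noise that was independent between arrays. In the data 6065 genes were called and arrays of one course correlated, so these rates do not measure recovery or false calls there. The labels number the time courses, so same-numbered samples share a course, and the deviations of all 45 pairs of arrays of one course correlated (0.157 to 0.556, median 0.243). The replicate block fit, with 1 term per course, is given where it changes a call. The design calls the courses independent. The p-values rest on the spread between the 3 shOTX2 courses at each time, pooled over times, with no course term in the main fit. They hold no spread between control courses, since there was 1.

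Values in every course were given for the 12 genes with the largest called changes of at least 1 at 96 h, and other called members by their change. Members bright but not called, and those below the filter, were given by level. From the adhesion list, up to 3 called genes each way and 4 catenins were named. CDH2, CDH8, CDH11, CELSR3, PCDHAC2, PCDH9, JUP and the pooled alpha probe sets were given in more detail after their values were seen. The members and lists were chosen with earlier results of these data known. Alternatives were the pseudocount (4, 64), the filter, the scaling, the choice of probe set, the block, the samples in the fit, the variance prior and leaving out a course.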

Additional observations from a re-analysis of the deposited data

Results flagged for a closer look

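The change from early to late times differed between the shOTX2 and control arms, by limma's test of the difference itself, in 20 members. In the same test 22.5% of all genes were called. Some of the 20 passed the signal filter only through the late shOTX2 arrays, as given above. In the beta cluster the differences (shOTX2 change minus control change, log2) were 2.84 for PCDHB15, 2.40 for PCDHB16, 2.04 for PCDHB7, 1.93 for PCDHB14, 1.57 for PCDHB5, 1.38 for PCDHB2, 1.35 for PCDHB3, 1.30 for PCDHB12 and 1.18 for PCDHB11. In the gamma cluster they were 2.41 for PCDHGA4, 2.35 for PCDHGA8, 2.01 for PCDHGA10 and 1.61 for PCDHGA3. The other genes were CELSR2 (2.38), DCHS1 (1.60), CDH7 (1.49), CDH6 (1.38), CDH11 (0.89) and FAT3 (0.74), and PCDHAC2 was the one with a lower shOTX2 change (-1.58). Other kept probe sets of these genes, tested on their own, did not all follow. That of DCHS1 gave 0.10, that of PCDHGA3 0.34 and those of CDH11 -0.06 and 0.04, none of them called. Those of CDH6 gave 1.19 (called) and 0.45, 0.46 and 0.59 (not called), and that of CELSR2 was called (2.25). Among members not called, a second probe set was called for PCDHB13 (1.07) and PCDH9 (1.27).

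A probe set outside the naming rule, which names both PCDHB9 and PCDHB10, showed a difference of 2.87 between the arms. Its control course read 15.3 to 32.9, and its 96 h shOTX2 arrays 399 to 512.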

How the results depend on the processing

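All counts here are of members called. Most are given without the share of all genes called in the same run, so they show only how the member calls moved. Of the 31 genes called at 96 h, 25 kept their direction and call in every alternative run that tested them, and none reversed. A gene that a run did not test was not counted as lost. CDH15, CDH11, PCDHA5, PCDHA9, PCDHB4 and PCDH9 lost the call in at least 1. A filter on 12 arrays, which tests fewer members, left 16 called at 96 h, 14 at 48 h and 8 in the difference between arms. Only probe sets without a shared-probe mark, chosen after seeing the data, tested 33 members and called 20, 16 and 12, of which 20, 16 and 10 were calls of the full set. The difference between arms from 48 h against 8 h alone gave 10. At 24 h the count was 1 with no filter and 5 with the replicate block, which gave 1 at 16 h and left 31 at 96 h. Leaving out a course gave 0 to 1 at 24 h, 19 to 24 at 48 h and 0 to 2 between the arms at 0 h. Where the table does not show fewer genes or arrays, the cause was not tested. Centring arrays on their medians moved the median change of all genes at 96 h to -0.15 and the genes called from 2937 higher and 3128 lower to 2253 and 4016, with 29 members higher. A fit of only the groups compared could not be run for the control course, which leaves no residual degrees of freedom, and the block could not be fitted between the arms at 0 h. Signals near background limit the dim members.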
